A study of Drosophila melanogaster with 36 samples.

Results

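The genes described here encode the proteins of the large subunit of the mitochondrial ribosome of *Drosophila melanogaster*. They were taken from the deposited expression table by a list of 43 gene identifiers, without use of any measured value. The table held 42 of the 43 among its 13820 gene identifiers, and all 42 had enough values to be tested, as did 13791 genes in all. The identifier CG4923 had no line of its own, and the annotation gives it as another name of mRpL9, which the array carries under a different identifier. CG6547 was read as mRpL37, its current name by locus tag, although the annotation also lists it as a synonym of a neighbouring gene.

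Mitochondria keep a small genome of their own, and their ribosomes make the few proteins it encodes, which are core subunits of the respiratory chain. Every protein of these ribosomes is encoded in the nucleus, made in the cytosol and imported. The large subunit joins amino acids at its peptidyl transferase centre, lets the new chain out through an exit tunnel, and recruits translation factors through a stalk. Some of its proteins descend from those of bacterial ribosomes, and others occur in mitochondrial ribosomes alone. Flight muscle, which fills most of the fly thorax, is among the tissues richest in mitochondria.

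The thoraxes came from a fly model of oculopharyngeal muscular dystrophy, a muscle disease caused by a lengthened alanine tract in the nuclear poly(A) binding protein PABPN1. PABPN1-17ala flies (UAS-PABPN1-17ala/+; Mhc-Gal4/+) carried the expanded mammalian protein under control of the muscle driver Mhc-Gal4, and control flies (Mhc-Gal4/+) carried the driver alone. Both genotypes were sampled at days 2, 6 and 11 of adult life. Each of the 6 conditions had 6 two-colour arrays, of which 3 carried Cy5-labelled and 3 Cy3-labelled thorax RNA, hybridised against a common reference pooled from control flies at day 2. Each extract combined 50 thoraxes and there were 3 extracts a condition, so that the Cy5 and Cy3 arrays of a condition probably share extracts, though no source pairs them. One of the labels of the day 2 PABPN1-17ala array numbered 1 names the control genotype, while its other labels name PABPN1-17ala, under which it was used. Without that replicate number mRpL28 and mRpL41 kept the calls described further on (limma, adjusted p = 0.0313 for mRpL28 at day 2, 0.0276 for mRpL28 on the mean of the days and 0.00474 for mRpL41 with age), and the members' medians at days 2, 6 and 11 were -0.163, -0.0799 and 0.137. In whole thoraxes, fewer muscle cells and less RNA per cell cannot be told apart.

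Values are log2 ratios of thorax RNA to the reference, so they show changes but not how abundant a transcript was, and no level is compared between genes, nor could muscle markers be checked for their presence. The direction of the ratio is not given in the sources used here. It was taken as thorax over reference because GstD1, a detoxification gene switched on by oxidative stress, was then 2.17 higher on the log2 scale in PABPN1-17ala flies than in control flies at day 2 (limma, adjusted p = 2.77e-05), and with the opposite reading every sign would turn. The mean profiles of Cy5 and Cy3 arrays correlated across genes with r of 0.324 to 0.676 in 5 conditions. In control flies at day 2, where thorax and reference RNA came from the same genotype and day, r was -0.499. The 42 genes were measured about as tightly as the others: their median within-condition standard deviation was 0.145, from 0.072 for mRpL39 to 0.436 for mRpL14, against 0.133 over all genes tested. A gene was called changed when limma, fitted to each dye on its own, gave the same sign on both dyes and the larger of both p-values passed 0.05 after Benjamini-Hochberg adjustment over all 13791 genes.

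At day 2 the large-subunit genes lay mostly below control, by small amounts. The median log2 fold change of PABPN1-17ala over control was -0.16, against -0.01 over all genes tested. Of the 42 genes, 29 lay below 0 on both dyes and 1 lay above 0 on both, compared with 30% and 19.6% of all genes. The differences ran from -0.89 for mRpL52 to 0.08 for mRpL30, and 15 genes were within 0.1 of 0. Only mRpL28 passed the test, a share of members to be read beside the 0.95% of all genes called at that day. An unadjusted p below 0.05 was seen for 3 members, all lower, and for 543 of all 13791 genes, 251 of them lower.

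At day 6 the same side prevailed with smaller values. The median was -0.07, and the range was -0.66 for mRpL52 to 0.05 for mRpL2. On both dyes 25 genes lay below 0 and 3 above, compared with 33% and 27.1% of all genes. No member was called by limma, against 1.6% of all genes. Unadjusted p was below 0.05 for 2 members, both lower, and for 679 of all 13791 genes, 288 of them lower. At day 11 the sign was the other one. The median was 0.15 against 0.03 over all genes, and the values ran from -0.26 for mRpL43 to 0.59 for mRpL51. On both dyes 22 members were above 0 while 4 were below it, compared with 31.8% and 19.9% of all genes. Again no large-subunit gene passed the limma test, against 1.18% of all genes. For 4 members, mRpL35, mRpL52, mRpL51 and mRpL4, unadjusted p was below 0.05, all higher. It was so for 826 of all genes, 465 of them higher. Averaged over the days, these opposite signs left a median of -0.02, with mRpL28 the 1 member called, against 3.18% of all genes.

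**Figure D1:**
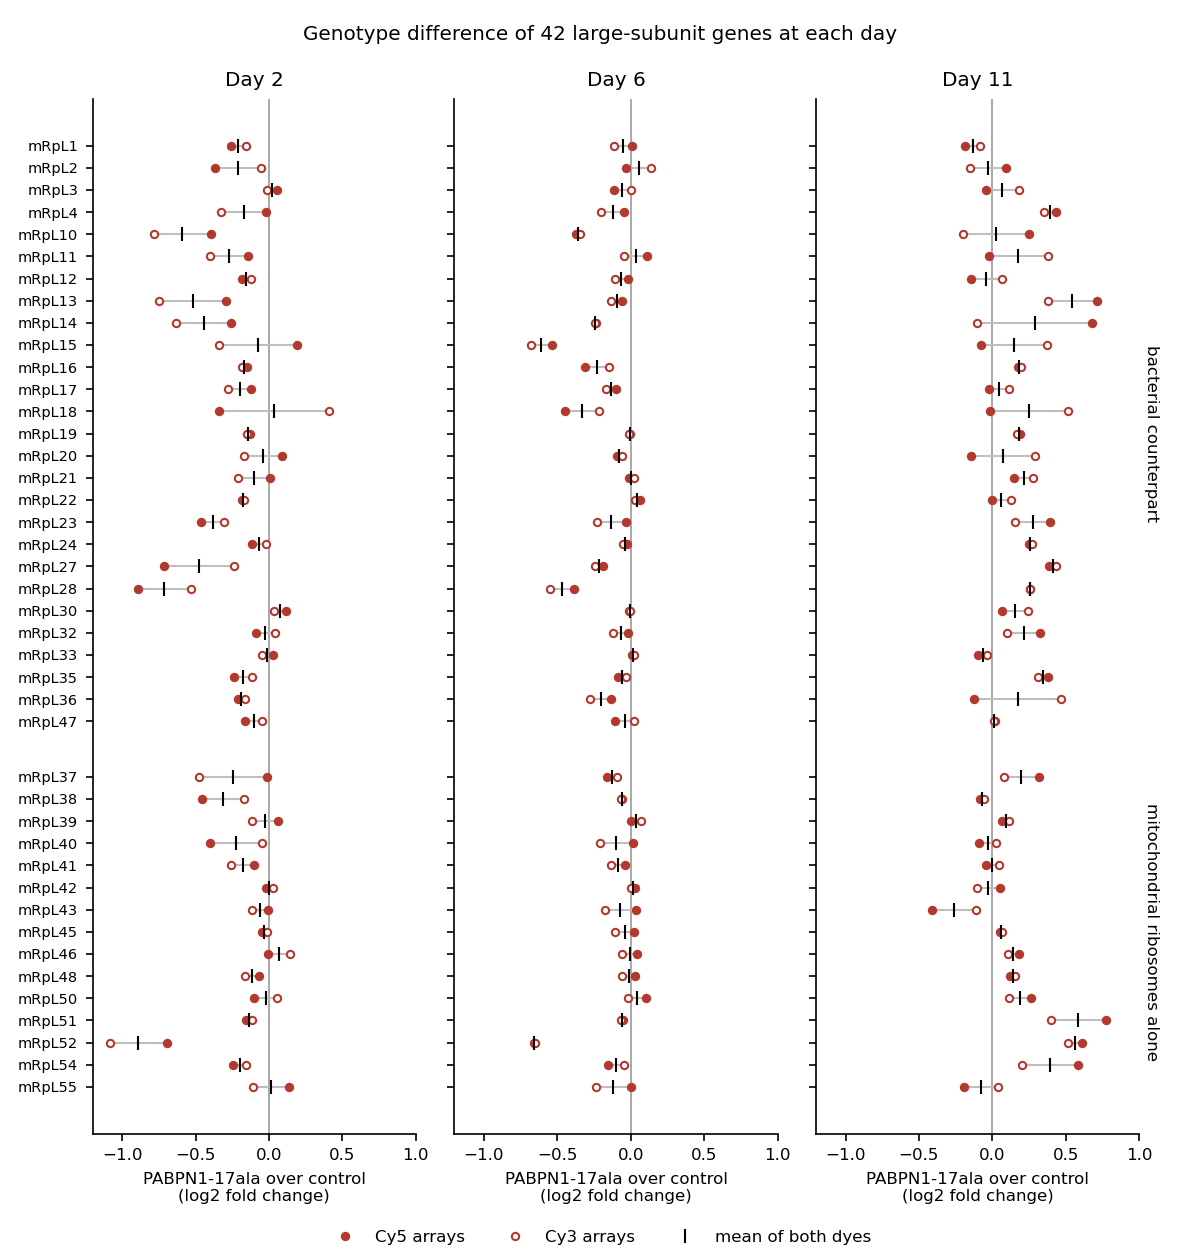
Log2 fold change of PABPN1-17ala over control (horizontal axis) for each of the 42 large-subunit genes at days 2, 6 and 11, with filled points for Cy5 arrays, open points for Cy3 arrays and a tick for their mean. Each point compares 3 with 3 arrays, except 2 with 3 for mRpL11, mRpL13, mRpL15, mRpL18 and mRpL23 on Cy3 at day 11. Most ticks sit left of 0 at day 2 (median -0.16) and right of 0 at day 11 (median 0.15).

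Whether all arrays of one genotype lay on the same side of all arrays of the other, on both dyes, gives a simpler view of the same data. At day 2 this held for 4 members with PABPN1-17ala lower, mRpL16, mRpL27, mRpL28 and mRpL52 (9.52% of members, against 2% of all genes), and for 0 with PABPN1-17ala higher (1.91% of all genes). At day 6 it held for 6 members with PABPN1-17ala lower, mRpL10, mRpL14, mRpL15, mRpL20, mRpL28 and mRpL52 (14.3%, against 4.62%), and for 0 with it higher (5.78% of all genes). At day 11 it held for 0 members with PABPN1-17ala lower (1.39% of all genes) and for mRpL21 and mRpL35 with it higher (4.76%, against 2.16%). mRpL28 and mRpL52 were separated from control at both early days.

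mRpL28 (CG3782), the counterpart of bacterial ribosomal protein L28, had the smallest adjusted p of the 42 genes at day 2. At day 2 its log2 ratios on Cy5 arrays were -0.34, -0.72 and -0.79 in PABPN1-17ala flies, against 0.28, 0.33 and 0.21 in control flies. On Cy3 arrays they were -0.91, -1.22 and -0.89 in PABPN1-17ala flies, against -0.34, -0.65 and -0.44 in control flies. Within each dye the genotypes did not overlap, and control flies themselves differed by dye, with means of 0.27 ± 0.06 on Cy5 and -0.48 ± 0.16 on Cy3 arrays (SD, n = 3 each), so that the comparison holds only within a dye. The log2 fold change was -0.71, that is 61.1% of the control level, with -0.89 (SE 0.136) from Cy5 and -0.53 (SE 0.113) from Cy3 arrays (limma, adjusted p = 0.0325).

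At day 6, mRpL28 again had no overlap. Its Cy5 ratios were -0.49, -0.93 and -0.72 in PABPN1-17ala flies, against -0.43, -0.22 and -0.34 in control flies, and its Cy3 ratios were -1.07, -0.84 and -0.92 in PABPN1-17ala flies, against -0.43, -0.36 and -0.39 in control flies. The log2 fold change of -0.47 was not called (limma, adjusted p = 0.368). At day 11 the genotypes overlapped on both dyes and the order was the other one: PABPN1-17ala means were -0.38 ± 0.12 on Cy5 and -0.43 ± 0.14 on Cy3 arrays, and control means were -0.63 ± 0.23 on Cy5 and -0.69 ± 0.17 on Cy3 arrays (SD, n = 3 each). The log2 fold change there was 0.25 (limma, adjusted p = 1), and the mean over the days was -0.31 (limma, adjusted p = 0.026).

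The mRpL28 calls did not hold in every fit with fewer arrays. Leaving out one replicate number of a genotype at all 3 days at once, which leaves 2 of 3 arrays of a dye in each of its conditions, ended the day 2 call without PABPN1-17ala replicate 5 (limma, adjusted p = 0.233) or 6 (0.0861), and without control replicate 4 (0.222) or 6 (0.193). The call on the mean of the days ended in 10 of 12 such fits, those without PABPN1-17ala replicates 2, 3, 4, 5 or 6 or control replicates 1, 2, 3, 4 or 6, the adjusted p running from 0.026 to 0.186 over the 12.

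mRpL52 (CG1577), a protein of mitochondrial ribosomes with no bacterial counterpart, had larger differences than mRpL28 but more scatter. At day 2 its Cy5 ratios were -0.50, -0.65 and -0.72 in PABPN1-17ala flies, against -0.30, 0.66 and -0.14 in control flies. Its Cy3 ratios were -0.63, -1.03 and -0.92 in PABPN1-17ala flies, against 0.38, 0.30 and -0.01 in control flies. All PABPN1-17ala arrays were thus below all control arrays, and 1 control array stood far above the other Cy5 arrays.

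At day 6 mRpL52 averaged -0.67 ± 0.25 on Cy5 and -0.72 ± 0.12 on Cy3 arrays in PABPN1-17ala flies, against -0.01 ± 0.17 on Cy5 and -0.07 ± 0.15 on Cy3 arrays in control flies (SD, n = 3 each). At day 11 it averaged 0.03 ± 0.23 on Cy5 and 0.27 ± 0.25 on Cy3 arrays in PABPN1-17ala flies, against -0.58 ± 0.20 on Cy5 and -0.24 ± 0.33 on Cy3 arrays in control flies. The PABPN1-17ala ratio was thus below 0 at the first days and near or above 0 at day 11, and the control ratio ran the opposite way. PABPN1-17ala over control was -0.89 on the log2 scale at day 2 (limma, adjusted p = 0.231), -0.66 at day 6 (0.218) and 0.56 at day 11 (0.311), so that no day gave a call.

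**Figure D2:**
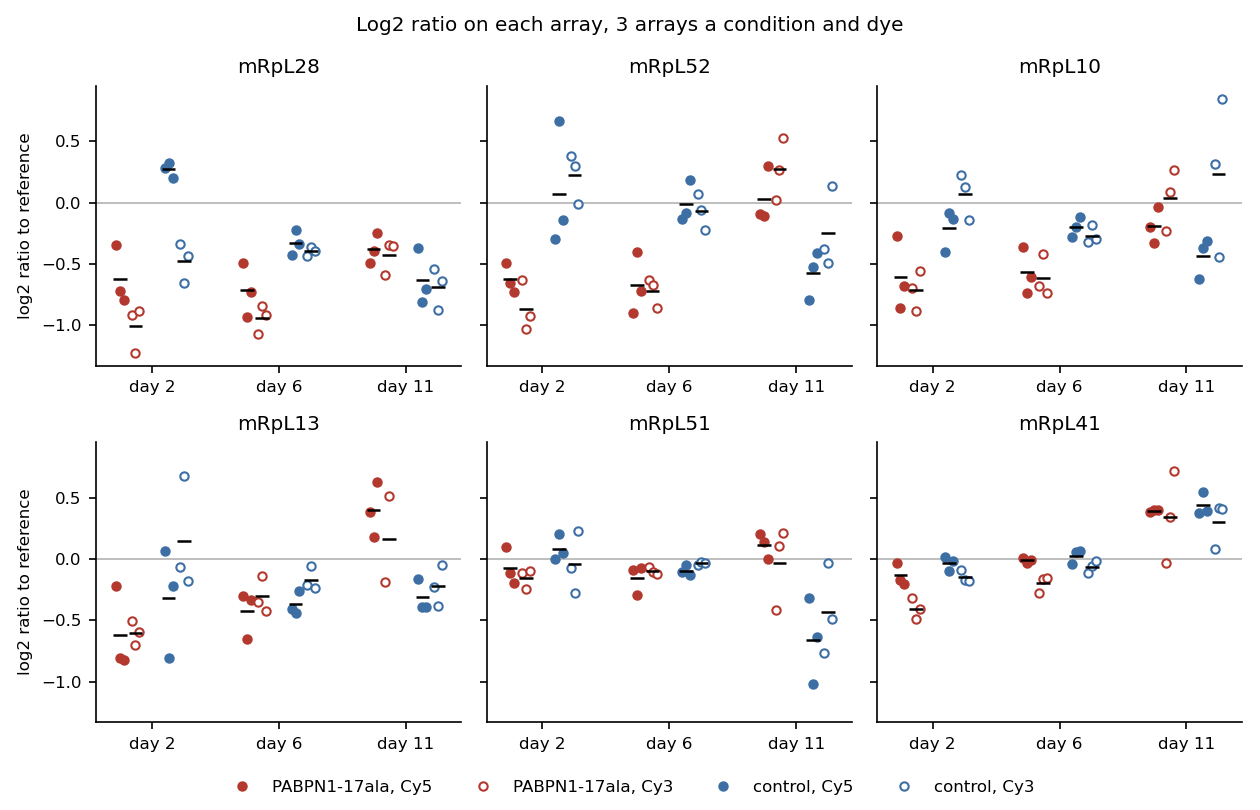
Log2 ratio to the reference (vertical axis) on each array for 6 large-subunit genes at days 2, 6 and 11, PABPN1-17ala in red and control in blue, filled points for Cy5 and open points for Cy3, with a bar at the mean of each group of 3 arrays (2 for mRpL13 in PABPN1-17ala flies at day 11 on Cy3). mRpL28 and mRpL52 were lower in PABPN1-17ala than in control flies within each dye at days 2 and 6 (log2 fold changes -0.71 and -0.47 for mRpL28, -0.89 and -0.66 for mRpL52), while mRpL41 lay high at day 11 in both genotypes.

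The stalk and its base are formed around mRpL10, mRpL11 and mRpL12, with mRpL1 on the opposite flank of the subunit. The median of these 4 genes was -0.24, -0.06 and -0.01 at days 2, 6 and 11, and all 4 lay below 0 on both dyes at day 2. mRpL10 (CG11488), whose bacterial counterpart holds the stalk protein L12, led them. Over the 6 arrays of day 2 its lowest, median and highest ratios were -0.88, -0.69 and -0.27 in PABPN1-17ala flies, against -0.40, -0.11 and 0.23 in control flies, and at day 6 they were -0.74, -0.64 and -0.36 in PABPN1-17ala flies, against -0.32, -0.24 and -0.12 in control flies. The genotypes overlapped at day 2 over all arrays and were apart at day 6. On the log2 scale the difference was -0.59 at day 2 (limma, adjusted p = 0.566), -0.36 at day 6 (adjusted p = 1) and 0.02 at day 11 (adjusted p = 1). The other 3 genes, mRpL11 (-0.27), mRpL1 (-0.21) and mRpL12 (-0.16), had smaller log2 fold changes at day 2.

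Around the peptidyl transferase centre, bacterial counterparts of mRpL2, mRpL3 and mRpL4 hold the ribosomal RNA in place, and those of mRpL16 and mRpL27 reach toward the bound transfer RNAs. Their medians were -0.17, -0.12 and 0.18 at days 2, 6 and 11. mRpL27 (CG33002) had the widest course, with log2 fold changes of -0.47, -0.21 and 0.41. At day 11 its ratios spanned -0.34 to 0.11 with a median of -0.24 in PABPN1-17ala flies, against -0.81 to -0.25 with a median of -0.70 in control flies, so that the groups overlapped slightly. mRpL4 (CG5818) had log2 fold changes of -0.17, -0.12 and 0.39, and mRpL16 (CG3109) of -0.17, -0.23 and 0.18. mRpL3 (CG8288), the member of this group with the smallest differences, had 0.02, -0.06 and 0.07. None of the 5 was called at any day.

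Around the exit tunnel lie mRpL4, mRpL22, mRpL23, mRpL24 and mRpL47, with bacterial counterparts, and mRpL45, through which mammalian mitochondrial ribosomes hold on to the inner membrane. All 6 lay below 0 on both dyes at day 2, with a median of -0.14, and 5 of 6 lay above 0 on both dyes at day 11, with a median of 0.16. mRpL23 (CG1320) had the widest course of them, with -0.38 at day 2, -0.13 at day 6 and 0.27 at day 11. mRpL45 (CG6949) had -0.03, -0.04 and 0.06, and none of the 6 was called at any day by limma.

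The 27 proteins with a bacterial counterpart and the 15 of mitochondrial ribosomes alone shared the order of the days. Their medians at days 2, 6 and 11 were -0.17, -0.07 and 0.18 for the first and -0.12, -0.06 and 0.09 for the second. On both dyes, 19 of 27 and 10 of 15 lay below 0 at day 2, and 13 of 27 and 9 of 15 lay above 0 at day 11. Among the rest of the first, mRpL13 (CG10603) had log2 fold changes of -0.52, -0.10 and 0.54, mRpL14 (CG14048) of -0.44, -0.24 and 0.29, and mRpL15 (CG5219) of -0.08, -0.61 and 0.15. Among the second, mRpL51 (CG13098) had -0.13, -0.06 and 0.59, mRpL54 (CG9353) had -0.20, -0.10 and 0.39, and mRpL38 (CG15871) had -0.31, -0.06 and -0.07. mRpL38 was the 1 member below 0 on both dyes at all 3 days.

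mRpL51 was the member with the highest value on the mean of the days, 0.13. That value came from day 11, where its Cy5 ratios were 0.20, 0.14 and 0.00 in PABPN1-17ala flies, against -0.31, -1.02 and -0.64 in control flies. Its Cy3 ratios were -0.41, 0.11 and 0.21 in PABPN1-17ala flies, against -0.77, -0.03 and -0.49 in control flies. The genotypes were apart on Cy5 and overlapped on Cy3 arrays, where PABPN1-17ala replicate 4 lay within the control range, and the log2 fold change of 0.59 was not called (limma, adjusted p = 0.684). mRpL30 (CG7038) and mRpL50 (CG8612) followed it on the mean of the days, with 0.07 each.

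mRpL30, the counterpart of bacterial L30, had log2 fold changes of 0.08, -0.01 and 0.15 at days 2, 6 and 11. Its lowest, median and highest ratios at day 11 were -0.05, 0.15 and 0.30 in PABPN1-17ala flies, against -0.46, 0.00 and 0.38 in control flies, so that the control arrays spanned all of the PABPN1-17ala arrays. mRpL50, a protein of mitochondrial ribosomes alone, had log2 fold changes of -0.02, 0.04 and 0.19, and its day 11 ratios were -0.21, 0.01 and 0.33 in PABPN1-17ala flies, against -0.38, -0.19 and 0.05 in control flies. The genotypes overlapped for both genes at each day.

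Flat members were a minority. mRpL3, mRpL20, mRpL33, mRpL39, mRpL42 and mRpL45 stayed within 0.1 of 0 at all 3 days, which is 6 of 42 or 14.3%, against 40.5% of all genes. mRpL42 (CG12921) had the smallest values of them, 0.00, 0.02 and -0.03, and mRpL39 (CG17166), the member with the tightest arrays, had -0.03, 0.03 and 0.09.

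mRpL35 (CG13410) had the smallest p of the members at day 11. Its ratios had a lowest, median and highest of -0.16, 0.11 and 0.24 in PABPN1-17ala flies, against -0.37, -0.25 and -0.14 in control flies. Within each dye the genotypes were apart, and over all 6 arrays the lowest PABPN1-17ala array fell just inside the control range. PABPN1-17ala over control was 0.35 on the log2 scale (limma, adjusted p = 0.211). This gene and the other members given with array values beyond the rule for named genes were singled out after their values had been seen.

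How far both dyes gave the same answer varied among members. Across the 42 genes the fold changes from Cy5 and Cy3 arrays correlated with r of 0.419 at day 2, 0.782 at day 6 and 0.332 at day 11. The dyes gave opposite signs for 12 members at day 2, 14 at day 6 and 16 at day 11. On the mean of the days the largest gaps were those of mRpL18 (CG12373), -0.27 on Cy5 and 0.23 on Cy3 arrays, of mRpL14, 0.06 and -0.33, and of mRpL13, 0.12 and -0.17. For these genes a single array could stand far off: mRpL18 reached 1.95 on 1 Cy3 array of PABPN1-17ala flies at day 2, where the other 2 were -0.13 and 0.38, and mRpL14 in control flies at day 11 ran from -1.57 to 1.33. At day 6, where its scatter was small, mRpL14 had a lowest, median and highest ratio of -0.55, -0.50 and -0.23 in PABPN1-17ala flies, against -0.36, -0.18 and -0.07 in control flies, and the genotypes were apart within each dye.

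The treatment of the dyes set how many members were called. With all 36 arrays in 1 limma fit and dye as a covariate, which counts both dyes as separate replicates although they may share extracts, 7 members were called lower at day 2 (mRpL10, mRpL13, mRpL17, mRpL27, mRpL28, mRpL38 and mRpL52, beside 1.76% of all genes called lower), 3 lower at day 6 (mRpL16, mRpL28 and mRpL52, beside 2.26%) and 7 higher at day 11 (mRpL4, mRpL13, mRpL27, mRpL35, mRpL51, mRpL52 and mRpL54, beside 5.3% called higher). In that fit mRpL13, mRpL27 and mRpL52 were called lower at day 2 and higher at day 11.

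The opposite signs at the ends of the time course were tested as the change of the genotype difference between days. For day 11 minus day 2 the members' median was 0.24, against 0.05 over all genes, and 32 members were above 0 on both dyes and none was below, compared with 32.9% and 17.4% of all genes. No member passed the limma test, against 0.29% of all genes. An unadjusted p below 0.05 was seen for 7, all with a higher difference at day 11: mRpL28, mRpL52, mRpL27, mRpL13, mRpL35, mRpL16 and mRpL19. Over all 13791 genes 619 had one, 362 of them higher. mRpL28 came closest, with a change of 0.97 (limma, adjusted p = 0.0545), and mRpL52 had the widest change, 1.45 (limma, adjusted p = 0.0929). Without PABPN1-17ala replicate 1 mRpL28 passed, and without PABPN1-17ala replicate 4 both mRpL28 and mRpL52 did. Shares of all genes called for this change in these fits are not given here. For the genotype difference at day 11, 76 genes were called higher and 44 lower without replicate 1, against 104 and 59 with all arrays. Without replicate 4 these counts were 200 and 242, so that this fit called more genes across the array. In the fit with dye as a covariate 11 members passed, all higher, beside 3.2% of all genes called higher.

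The members' median moved more after day 6 than before it, though the steps were not tested against each other. For day 6 minus day 2 the median was 0.08, against 0.007 over all genes. On both dyes 19 members lay above 0 and 4 below (27% and 21.7% of all genes). By limma 0 were called against 0.239% of all genes, and 0 had an unadjusted p below 0.05, against 292 of all genes. For day 11 minus day 6 the median was 0.17, against 0.04 over all genes, with 28 members above and 1 below (33.1% and 20.6% of all genes). By limma 0 were called against 0.0435% of all genes. An unadjusted p below 0.05 was seen for 4 members, all higher, and for 388 of all genes, 195 of them higher. Of the 42 members, 13 were below 0 on both dyes at days 2 and 6 and above 0 on both at day 11 (mRpL4, mRpL13, mRpL16, mRpL19, mRpL23, mRpL24, mRpL27, mRpL28, mRpL35, mRpL37, mRpL51, mRpL52 and mRpL54), a share of 31%, against 3.02% of all genes. Across the members, the genotype differences of day 2 correlated with those of day 6 with r = 0.602 and with those of day 11 with r = -0.421, where all genes gave 0.491 and 0.176. The days share no arrays, but they share the reference and the dyes, and genes are not independent replicates.

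The median of muscle structural genes ran the other way over the same days. Of 10 muscle markers 9 were tested, and their median genotype difference was 0.0678, -0.113 and -0.295 at days 2, 6 and 11. These markers differed in sign at each day, with ranges of -0.882 to 0.704, -1.52 to 0.303 and -1.62 to 0.215. Their median change between days 2 and 11 was -0.524, with a range of -1.19 to 0.12 and 0 called in any of these. The lists of fat body (5 genes), haemocyte (3), neuron and glia (5) and gut (2) markers had 0 calls as well. In this order, their median changes from day 2 to day 11 were 0.226, -0.0175, -0.0323 and 0.676. The genes of a list could differ widely, with ranges of -0.028 to 1.28, -0.113 to -0.00773, -0.892 to 0.251 and 0.0772 to 1.28. The part of cell composition in the change of the large-subunit genes was not tested.

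The median over the 42 genes on each array shows the same course without any fit. At day 2 the 6 PABPN1-17ala arrays lay between -0.169 and -0.0551, all below the 6 control arrays, which lay between 0.000246 and 0.0704. At day 6 they lay between -0.174 and -0.0761 in PABPN1-17ala flies and between -0.1 and -0.0322 in control flies, and overlapped. At day 11 they lay between -0.0986 and 0.0915 in PABPN1-17ala flies and between -0.201 and 0.0367 in control flies, overlapping again. At day 11 the lowest PABPN1-17ala array was replicate 4, and the other 5 lay above 0, as did 1 of the 6 control arrays.

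**Figure D3:**
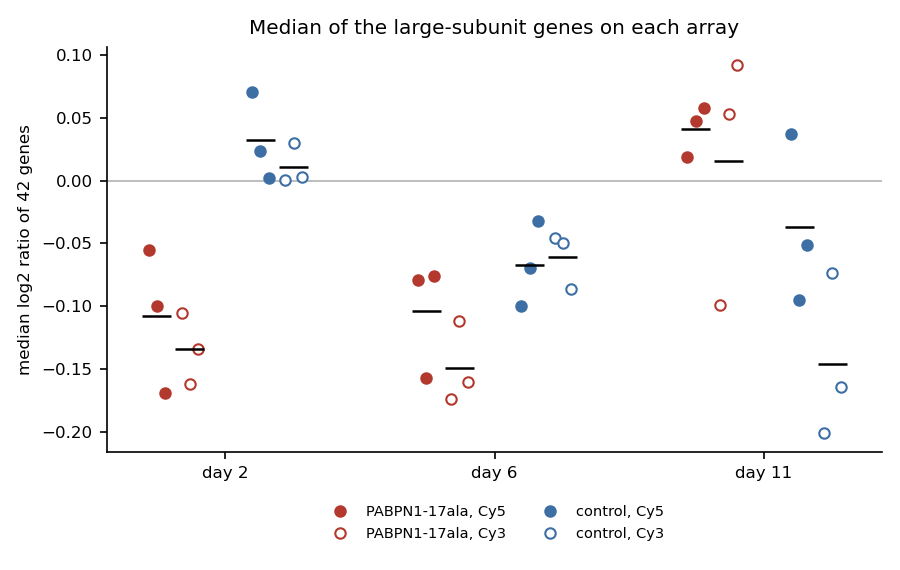
Median log2 ratio to the reference over the 42 large-subunit genes (vertical axis) on each of the 36 arrays at days 2, 6 and 11, PABPN1-17ala in red and control in blue, filled for Cy5 and open for Cy3, with bars at the means of 3 arrays. All 6 PABPN1-17ala arrays are below all 6 control arrays at day 2, and the genotypes overlap at days 6 and 11.

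Within each genotype the genes took different courses with age. In PABPN1-17ala flies the median log2 fold change of day 6 over day 2 was 0.00, with 0 members called by limma against 1.78% of all genes. Unadjusted p was below 0.05 for 1 member, against 815 of all 13791 genes. From day 6 to day 11 the median was 0.15, with 24 members above 0 on both dyes against 4 below it (25.4% and 23.7% of all genes). By limma 0 members were called, against 0.957% of all genes. Unadjusted p was below 0.05 for 6 members, all higher, and for 769 of all genes, 412 of them higher. On both dyes 9 members had all day 11 arrays above all day 6 arrays, mRpL4, mRpL10, mRpL14, mRpL16, mRpL17, mRpL23, mRpL28, mRpL41 and mRpL52, which is 21.4% of members against 3.04% of all genes. Day 11 over day 2 had a median of 0.13, with 23 members above 0 on both dyes and 2 below (28.3% and 24.1% of all genes). The 1 member called was mRpL41, against 3.94% of all genes.

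In control flies the medians lay below 0, but the dyes agreed poorly. The median was -0.10 for day 6 over day 2, -0.06 for day 11 over day 6 and -0.15 for day 11 over day 2. In the same order, the members' fold changes from both dyes correlated with r of -0.0642, -0.0653 and -0.169. Opposite signs were seen for 19, 21 and 22 of the 42. In PABPN1-17ala flies r was 0.218, 0.32 and 0.385. For day 11 over day 6 the control median was 0.02 on Cy5 and -0.10 on Cy3 arrays. No member was called by limma in these 3 comparisons, against 0.58%, 0.145% and 1.55% of all genes in the same order. Unadjusted p was below 0.05 for 0, 4 and 7 members, against 468, 444 and 743 of all 13791 genes. Of the 4 members 3 were lower and 1 higher, and of the 7 members 6 were lower and 1 higher. For day 11 over day 2, 19 members lay below 0 on both dyes and 1, mRpL41, above (24.1% and 15.3% of all genes). mRpL51 had 0.15 in PABPN1-17ala flies, against -0.57 in control flies, mRpL52 had 0.90 against -0.56 and mRpL28 had 0.41 against -0.56, and these were the 3 lowest control values. On both dyes 10 members were higher with age in PABPN1-17ala flies and lower with age in control flies, 23.8% of members against 4.52% of all genes.

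**Figure D4:**
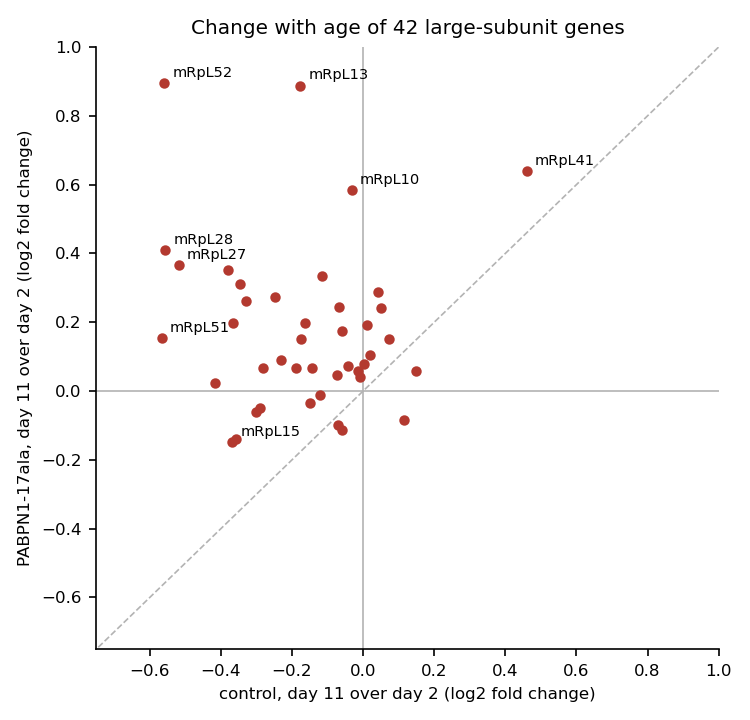
Log2 fold change of day 11 over day 2 in PABPN1-17ala flies (vertical axis) against the same in control flies (horizontal axis) for the 42 large-subunit genes, each value a mean of both dyes; the dashed line marks equal change. Most points lie above the line, with mRpL52 (0.90 in PABPN1-17ala, -0.56 in control) and mRpL13 (0.89 in PABPN1-17ala, -0.18 in control) farthest from it, and mRpL41 is high in both genotypes.

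mRpL13, a counterpart of bacterial L13, had one of the widest courses with age in PABPN1-17ala flies. Its lowest, median and highest ratios there were -0.19, 0.38 and 0.63 at day 11 (5 arrays, since 1 value was empty) and -0.82, -0.65 and -0.22 at day 2, so that the days did not overlap. Day 11 over day 2 was 0.89 on the log2 scale and was not called (limma, adjusted p = 0.0875). In control flies the same ratios were -0.39, -0.30 and -0.05 at day 11 and -0.81, -0.12 and 0.67 at day 2, and their wide spread at day 2 came from replicates 2 and 5 on either side.

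mRpL41 (CG12954), a protein of mitochondrial ribosomes alone, was the 1 member that lay higher with age on both dyes in PABPN1-17ala flies and in control flies. In PABPN1-17ala flies its Cy5 ratios were 0.38, 0.40 and 0.40 at day 11, against -0.03, -0.17 and -0.20 at day 2, and its Cy3 ratios were -0.03, 0.34 and 0.72 at day 11, against -0.32, -0.49 and -0.41 at day 2. All day 11 arrays were above all day 2 arrays within each dye. On the log2 scale the increase was 0.64, giving 156% of the day 2 level (limma, adjusted p = 0.00362). It was not called without PABPN1-17ala replicate 5 (limma, adjusted p = 0.0861) or 6 (0.0545), and with only the conditions compared in the fit (0.138).

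In control flies mRpL41 had Cy5 ratios of 0.38, 0.55 and 0.39 at day 11, against 0.01, -0.10 and -0.02 at day 2, and Cy3 ratios of 0.08, 0.41 and 0.41 at day 11, against -0.09, -0.17 and -0.18 at day 2. The arrays did not overlap here either, and the log2 fold change of 0.46 was not called (limma, adjusted p = 0.204). Between genotypes no day gave a call, PABPN1-17ala over control being -0.18, -0.09 and 0.00 at days 2, 6 and 11 (limma, adjusted p = 1 each), and the change of that difference from day 2 to day 11 was 0.18 (limma, adjusted p = 1).

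Other genes of mitochondrial translation give a frame for these values. Among genes with mRpL symbols, 3 further were on the array under identifiers outside the list, mRpL9, mRpL44 and mRpL49. mRpL9, which the list holds as CG4923, had log2 fold changes of -0.30, -0.14 and 0.58 at days 2, 6 and 11. The medians of the 3 genes at these days were -0.30, -0.09 and 0.26, and mRpL49 was called lower at day 2, by -0.63 (limma, adjusted p = 0.0257). The 26 genes with mRpS symbols, taken by symbol and not by the subunit of their protein, had medians of -0.10, -0.01 and 0.20. Their median change from day 2 to day 11 was 0.38. On both dyes 15 of the 26 were below 0 at day 2 and 19 were above 0 at day 11, and the only call at these days was mRpS18C, higher at day 11. mRpL49 and mRpS18C were named after their calls had been seen. The 15 mitochondrial aminoacyl-tRNA synthetase genes had medians of -0.02, -0.02 and -0.01, and the 9 mitochondrial translation factor genes of -0.10, -0.02 and 0.02. In either list 0 were called at these days by limma, with 3 and 1 genes at an unadjusted p below 0.05 over the 3 days. Over all 13791 genes, 543, 679 and 826 had such a p at days 2, 6 and 11.

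The 50 genes of the cytosolic large ribosomal subunit, the machine that makes the mitochondrial ribosomal proteins before import, took another course. Their medians were 0.01, 0.51 and 0.61 at days 2, 6 and 11, with 1, 6 and 16 genes called, all higher in PABPN1-17ala than in control flies. At day 6, 3 of the 42 mitochondrial large-subunit genes lay above 0 on both dyes, against 38 of these 50. The difference between the lists was not tested.

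**Figure D5:**
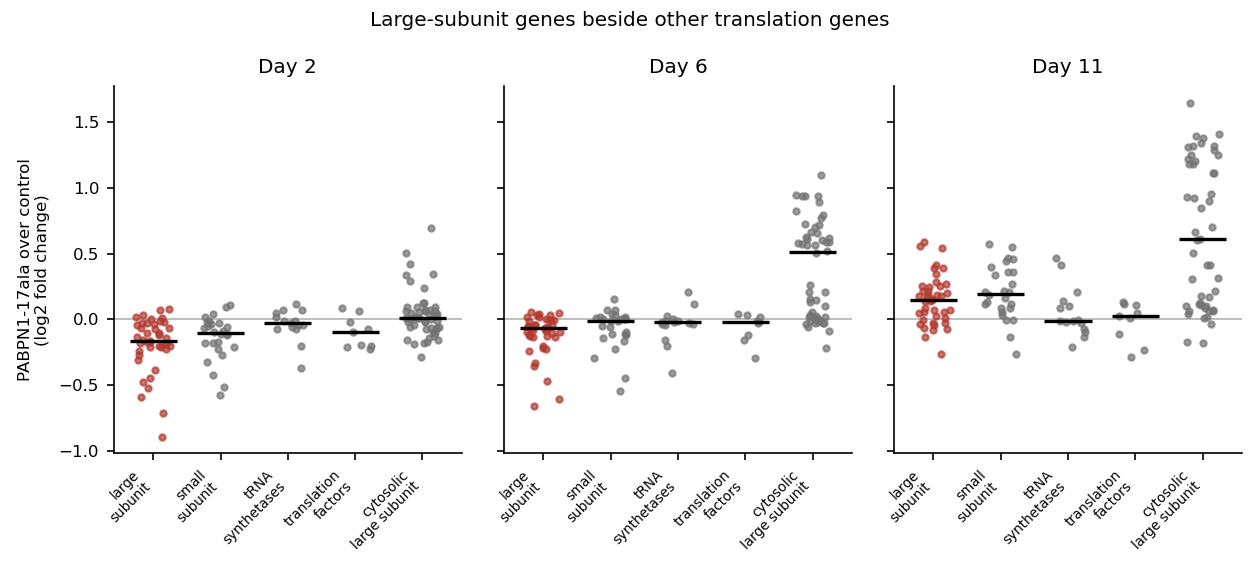
Log2 fold change of PABPN1-17ala over control (vertical axis) at days 2, 6 and 11 for each of the 42 large-subunit genes (red) and of the other lists, with bars at the medians. The others are mRpS symbols (labelled small subunit, n = 26), mitochondrial aminoacyl-tRNA synthetases (n = 15), mitochondrial translation factors (n = 9) and cytosolic RpL symbols (labelled cytosolic large subunit, n = 50). The medians of the 42 genes are -0.16, -0.07 and 0.15, and those of the RpL list are 0.01, 0.51 and 0.61.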

How the data were processed

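Thorax RNA was measured on 36 two-colour arrays, 6 for each genotype and day. The deposited table holds 1 log ratio for each gene identifier and array, normalized within each array by the authors, and it was read as log2 of thorax over reference. Log base, direction, background correction, normalization method and genome build are not given in the sources used here, spot intensities were not analysed here, and the number of arrays limits the precision. Of 13843 lines, 23 hold no fly gene, and 0.187% of values are empty. For mRpL11, mRpL13, mRpL15, mRpL18 and mRpL23 the value of array 6 of PABPN1-17ala flies at day 11 is empty and was dropped from the fit.

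Symbols came from the RefSeq annotation of fly release 6, by locus tag for 12047 identifiers, old locus tag for 864 and synonym for 317, and 592 stayed unpaired. Tested genes had values on 2 or more of 3 arrays in every condition and dye, which left out 29. In limma 3.58.1 (R 4.3.3) the 18 arrays of a dye entered 1 fit with 6 condition means and moderated variances. Fold changes were averaged over the dyes. The p of a gene was the larger one of its dyes, set to 1 for opposite signs, and was adjusted by Benjamini-Hochberg across the 13791 genes, with calls at 0.05. The procedure was tested on simulated data for the genotype difference at day 2. It called 62% of the genes changed by 0.5 on the log2 scale and 100% of those changed by 1. Changes smaller than 0.5, as most members had, were not simulated. Each p-value measures the spread between arrays of the same condition within 1 dye. The sources do not say which extract each array carried, so that this spread may be technical in part. As the dyes may share extracts, they were not counted as separate replicates.

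Members given with array values were those called in any contrast, the 3 lowest and 3 highest on the mean of the days, and the 3 with the largest gap between dyes. The members, role groups and comparison lists were chosen with earlier results of these data known. Alternatives were other treatments of the dyes, a replicate block, fewer arrays in the fit, no moderation (the two-way layout that the methods name), centring, quantile normalization, filters on empty values and on spread, and leaving out each replicate number of each genotype.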

Additional observations from a re-analysis of the deposited data

Results flagged for a closer look

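Among 66 groups of 5 or 6 arrays, 3 held an array far from the others by Dixon's gap. The groups were those of the 10 genes named by rule and of the members' median in each condition. Chance gives this in about 1 in 20 groups drawn from a single population, which is close to the share found. Each group pooled both dyes, which can differ, so that this rate applies only roughly and a gap between dyes can hide an outlying array. For mRpL51 in PABPN1-17ala flies, the Cy5 array of replicate 2 at day 6 was at -0.29, where the other 5 lay between -0.126 and -0.0692. The Cy3 array of replicate 4 at day 11 was at -0.412 for the same gene, where the other 5 lay between 0.000925 and 0.209. For mRpL41 in control flies at day 11, the Cy3 array of replicate 4 was at 0.0789, where the other 5 lay between 0.376 and 0.548. No member passed the test for a change of the genotype difference between days.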

How the results depend on the processing

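Under the 22 alternatives the fold changes of mRpL28 (day 2 and mean of the days), mRpL52 (each day), mRpL10 (day 2), mRpL51 (day 11) and mRpL41 (age in PABPN1-17ala flies) kept their direction. Those of mRpL18, mRpL14 and mRpL13 on the mean of the days have opposite signs on the dyes and turn with the dye used. The members' median ran from -0.205 to -0.121 at day 2, from -0.0999 to -0.0347 at day 6 and from 0.081 to 0.188 at day 11. With dye as a covariate in 1 fit, the members called were 7 lower at day 2, 3 lower at day 6, 7 higher at day 11, 5 lower on the mean of the days, 11 in the change of the genotype difference from day 2 to day 11, 1, 8 and 8 with age in PABPN1-17ala flies (day 6 over 2, 11 over 6, 11 over 2) and 1, 3 and 12 with age in control flies. Cy5 arrays alone gave 4 members lower at day 2 and 6 higher at day 11, where 123 and 1000 of all 13791 genes were called that way. They also gave 3 lower on the mean of the days and 7 in the change of the difference. With age they gave 7 and 6 in PABPN1-17ala flies (day 11 over 6, 11 over 2) and 4, 2 and 10 in control flies. Cy3 arrays alone gave 2 members lower at day 2 and 2 lower at day 6, where 108 and 163 of all genes were called that way. They also gave 2 lower on the mean of the days and 2 in the change of the difference. With age they gave 4 and 4 in PABPN1-17ala flies and 2 and 8 in control flies (day 11 over 6, 11 over 2). The other counts of this section have no share of all genes beside them and describe the fits rather than the members.

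The day 2 call of mRpL28 was lost (0 called) with only the conditions compared in the fit (adjusted p = 0.253), without moderation (0.0922), with arrays centred (0.0689) and with quantile normalization (1), over a range of 3.76e-05 to 1, while its fold change stayed between -0.89 and -0.53 over the alternatives. On the mean of the days 0 were called without moderation and with quantile normalization, and quantile normalization gave 1 call in control flies for day 11 over day 2. The call of mRpL41 in PABPN1-17ala flies, day 11 over day 2, was lost (0 called) with only the conditions compared. With the 37 members that have all values, 1 passed in the change of the difference; with the 26 members of spread above the median, 1 passed there and 2 in PABPN1-17ala flies for day 11 over day 2, and the day 2 median was -0.205. Leaving out a replicate number gave 0 to 1 lower at day 2 and on the mean of the days, 0 to 2 in the change of the difference, 0 to 1 in control flies for day 11 over day 2, and in PABPN1-17ala flies 0 to 1 for day 11 over 6 and 0 to 3 for day 11 over 2. Of these, the call in control flies and that for day 11 over 6 were mRpL41 without PABPN1-17ala replicate 4, and the 3 calls were mRpL17, mRpL41 and mRpL52 without control replicate 2, while without control replicate 5 mRpL13 joined mRpL41. The counts for the change of the difference were added after the data were seen.

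With the replicate block, mRpL28 at day 2 kept -0.71 (limma, adjusted p = 0.0416), with 1 member called lower, and no count of members called changed. Same-numbered arrays of both genotypes correlated in their deviations with r of -0.12 to 0.28, over 0.1 in 10 of 18 pairs. As not every pair was over 0.1 and no label ties the numbers to a shared extract or batch, the arrays were not treated as paired. The small number of arrays and the unstated sharing of extracts between dyes limit what the tests can show.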
